A study of Mus musculus with 12 samples.

Results

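The livers were compared for 8 genes of fatty acid ω-oxidation and acyl-CoA hydrolysis, the 4 cytochrome P450 hydroxylase genes Cyp4a10, Cyp4a14, Cyp4a31 and Cyp4a32 and the 4 acyl-CoA thioesterase genes Acot1, Acot2, Acot3 and Acot4. They were taken by gene symbol, and all 8 were found among the 24795 genes of the table and were among the 12009 that had enough reads to be tested. RNA-Seq was done on livers of male mice in 4 groups of 3 libraries, wild-type C57BL/6N mice (WT) and mice lacking Scly, the selenocysteine lyase gene (Scly KO), each fed from weaning for at least 8 weeks on a diet with 0.08 ppm (low) or 0.25 ppm (adequate) selenium as sodium selenite. The groups are named WT LS and KO LS on the low diet and WT MS and KO MS on the adequate diet. The ages were not given in the sources used here. Scly KO mice were kept as a homozygous colony and WT mice as a separate one, so that genotype and colony cannot be told apart. The table names each library by its group and a number from S1 to S12, which does not say which of the labelled samples it is, and nothing in the sources says how many litters or cages the mice came from, so that p-values measure only the spread between these libraries.

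Cyp4a enzymes are microsomal P450s that hydroxylate the terminal carbon of medium- and long-chain fatty acids, the first step of their conversion to dicarboxylic acids. Acyl-CoA thioesterases of the Acot1 to Acot4 cluster release free fatty acids from coenzyme A: in the mouse, ACOT1 does so in the cytosol, ACOT2 in mitochondria, and ACOT3 and ACOT4 in peroxisomes, with ACOT4 also acting on dicarboxylyl-CoA esters. In rodent liver, Cyp4a10, Cyp4a14 and several Acot genes are well-known targets of PPARα, the nuclear receptor that responds to fatty acids during fasting and to peroxisome proliferators.

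Both families lie in clusters of similar genes, and how alike they are decides how well short reads can tell them apart. In the mm10 coordinates of the table, Cyp4a14 (chromosome 4 from 115486200 to 115496141, minus strand), Cyp4a10 (115518287 to 115533649), Cyp4a31 (115563649 to 115579015) and Cyp4a32 (115600938 to 115622366, these 3 on the plus strand) stand side by side. On chromosome 12, all on the plus strand, lie Acot2 (83987861 to 83993875), Acot1 (84009502 to 84017669), Acot4 (84038379 to 84044723) and Acot3 (84052144 to 84060400). Aligned over their coding sequences in GENCODE M21, Cyp4a10 and Cyp4a32 were identical at 97.2% of bases, Cyp4a10 and Cyp4a31 at 96.6% and Cyp4a31 and Cyp4a32 at 96.0%, whereas Cyp4a14 shared 76.2% to 76.8% with them. The longest stretch of coding sequence in 1 exon that was identical in the first 3 is shown with its counterpart in Cyp4a14, whose 17 differing bases are in capitals. It is in exon 11 of each gene, in Cyp4a10 from 115529442 to 115529518 (mm10) on chromosome 4, and any 75 bases inside it match all 3 genes.
Cyp4a10: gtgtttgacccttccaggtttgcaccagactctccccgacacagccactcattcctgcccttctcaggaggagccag
Cyp4a31: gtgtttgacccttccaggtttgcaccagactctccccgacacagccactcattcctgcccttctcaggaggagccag
Cyp4a32: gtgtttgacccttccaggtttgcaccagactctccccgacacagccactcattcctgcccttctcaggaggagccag
Cyp4a14: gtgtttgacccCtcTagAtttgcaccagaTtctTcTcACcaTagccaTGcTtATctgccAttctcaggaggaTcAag

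Among the thioesterases, the coding sequences of Acot1 and Acot2 were identical at 95.6% of bases, those of Acot3 and either of them at 84.0% to 84.5%, and Acot4 shared 75.3% to 76.6% with the others. The longest identical stretch of Acot1 and Acot2 in 1 exon lies in exon 3 of both. Its first 120 bases, the most that was shown, run from 84017032 to 84017151 in Acot1 and from 83992754 to 83992873 in Acot2 (mm10, chromosome 12). They are shown because these bases alone fit both genes, while the capitals, bases that differ from Acot1, mark the 9 positions in Acot3 (exon 4) and the 48 in Acot4 (exon 3) that tell them apart.
Acot1: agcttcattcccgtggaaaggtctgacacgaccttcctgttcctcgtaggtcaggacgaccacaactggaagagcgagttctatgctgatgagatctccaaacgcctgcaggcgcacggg
Acot2: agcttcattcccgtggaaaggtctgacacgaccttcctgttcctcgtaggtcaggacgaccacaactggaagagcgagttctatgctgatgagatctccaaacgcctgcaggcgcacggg
Acot3: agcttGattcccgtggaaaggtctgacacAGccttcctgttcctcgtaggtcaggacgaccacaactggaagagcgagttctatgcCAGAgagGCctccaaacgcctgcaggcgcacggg
Acot4: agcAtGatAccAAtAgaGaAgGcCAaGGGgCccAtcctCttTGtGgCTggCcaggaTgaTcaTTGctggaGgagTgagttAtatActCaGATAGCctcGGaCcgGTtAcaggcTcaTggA

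Over whole transcripts, the share of 75-base windows that also occurred in a transcript of another gene was 30.4% in Cyp4a32, 26.4% in Acot1, 21.2% in Acot2, 19.1% in Cyp4a10, 16.5% in Acot3, 13.9% in Cyp4a31 and 1.79% in Acot4. Cyp4a14 had 0 such windows of 2422. The read length is not stated in the sources used here, but the sequencing kit named in the paper has enough cycles for reads longer than 75 bases. Longer or paired reads would be shared less often, so these percentages may overstate how many reads were shared. The deposited counts are estimates in which a read that matches several genes is divided among them, and they follow the same division: the estimated count of Cyp4a14 was a whole number (to within 0.005) in all 12 libraries and that of Acot4 in 7, but those of Cyp4a31, Cyp4a32, Acot1 and Acot2 in none of them. The count of Cyp4a10 was whole in 1 library and that of Acot3 in 3. Values of these 6 genes are therefore uncertain between related genes, and sums of Cyp4a10, Cyp4a31 and Cyp4a32 and of the 4 thioesterases are also given. Of the 553 shared windows of Acot3, 355 are shared with Gm49366, which has no row in the table, and the other cluster genes Acot5 (0 to 0.0567 CPM) and Acot6 (0 to 2.51 CPM) had few reads.

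**Figure D1:**
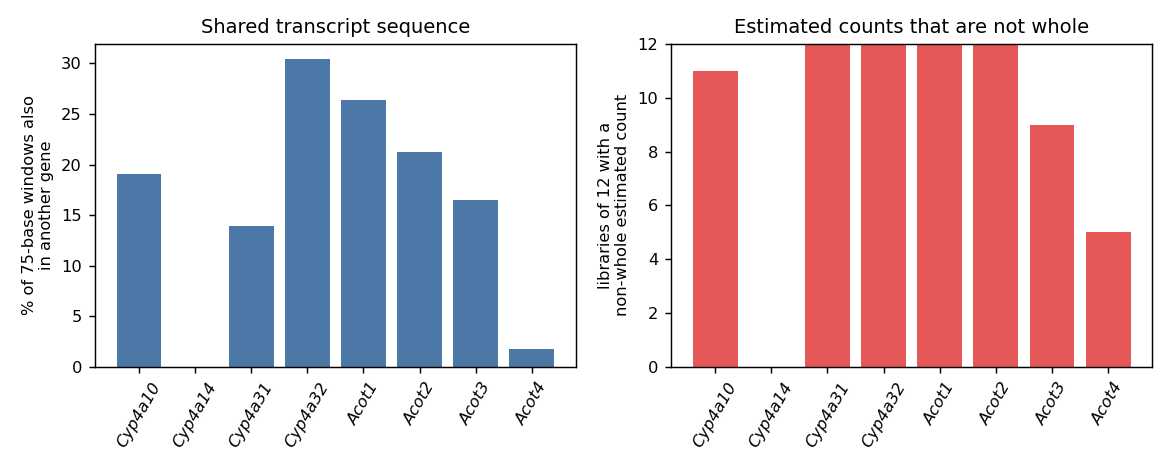
The left panel gives the percent of 75-base windows of each transcript that also occur in another gene, and the right panel the number of the 12 libraries in which the estimated count was not a whole number. Cyp4a14 is at 0 in both panels, and Cyp4a32 and Acot1 have the highest shared percentages, at 30.4% and 26.4%.

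The libraries held 4797067 to 11762165 counts. Scly was at 73.1 to 105 CPM (counts scaled to the library total after TMM normalization) in WT and 4.84 to 6.90 CPM in Scly KO libraries, as their labels say, and the 10 hepatocyte markers were detected in every library. Library S12 of KO LS stood apart from the rest, with the lowest mean rank correlation with the other libraries (0.951), a normalization factor of 1.535 against 0.751 to 1.08, and 26.1% of tested genes at their highest value and 25% at their lowest of all 12 libraries. Its summed bile duct markers (7 listed) were at 431 CPM against 57.1 to 94.5 in the others, its 6 stellate markers at 733 against 213 to 580, and its 10 hepatocyte markers at 76450 against 94680 to 137500. The sums of macrophage markers (181 CPM against 223 to 493) and endothelial markers (197 against 201 to 331) were lowest in S12 too. The stellate sum does not stand for each of its genes: on low selenium, 2 of the 6 were higher in Scly KO than in WT and 4 lower. Cyp4a12a, a male-biased hydroxylase gene of mice that was named after its values were seen, was at 5.13 CPM in S12 and 61.4 to 167 in the others, while the Y-linked Ddx3y was detected in all 12 (57.9 to 224 CPM). The 8 kidney markers summed to 0 to 0.223 CPM. Rn45s, a ribosomal RNA precursor, took 17.0% and 19.9% of counts in S7 and S8 of KO MS and 2.45% to 9.23% in the others. Beside the results that these libraries move most stand values without them, and in bulk tissue fewer cells of a type and less RNA per cell cannot be told apart.

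All 8 members had their highest group mean in KO LS, as did 40.7% of tested genes, and 6 had it lowest in WT LS, all but Cyp4a31 and Cyp4a32, as did 21.3% of tested genes. Both held for 6 of 8 members and for 10.5% of tested genes. Without S12, KO LS was highest for 7 of 8 (35.6% of tested genes), the exception being Acot2, whose mean was 9.13 CPM in KO LS and 9.24 in KO MS. The middle of the order was not distinct: the libraries of WT MS and KO MS overlapped for every member. Scaled to transcript length, WT MS livers had most Cyp4a10, with 44.7 ± 24.2 CPM per kb (SD, n = 3), then Cyp4a14 with 18.7 ± 12.0, Cyp4a32 with 10 ± 3.10, Acot1 with 9.16 ± 5.27, Acot3 with 6.17 ± 3.18, Acot4 with 6.13 ± 1.78, Acot2 with 3.11 ± 0.44 and Cyp4a31 with 1.38 ± 0.436. Neighbours in this order differed by less than their SDs from Cyp4a32 to Acot4, and the transcript model of Cyp4a32 holds coding sequence only, which raises its value per kb relative to the others. The Acot4 model used was 6203 bases long, nearly the whole span of the gene given above, introns included. If reads were counted on a shorter model, its value per kb is too low, so its place in this order is not settled.

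**Figure D2:**
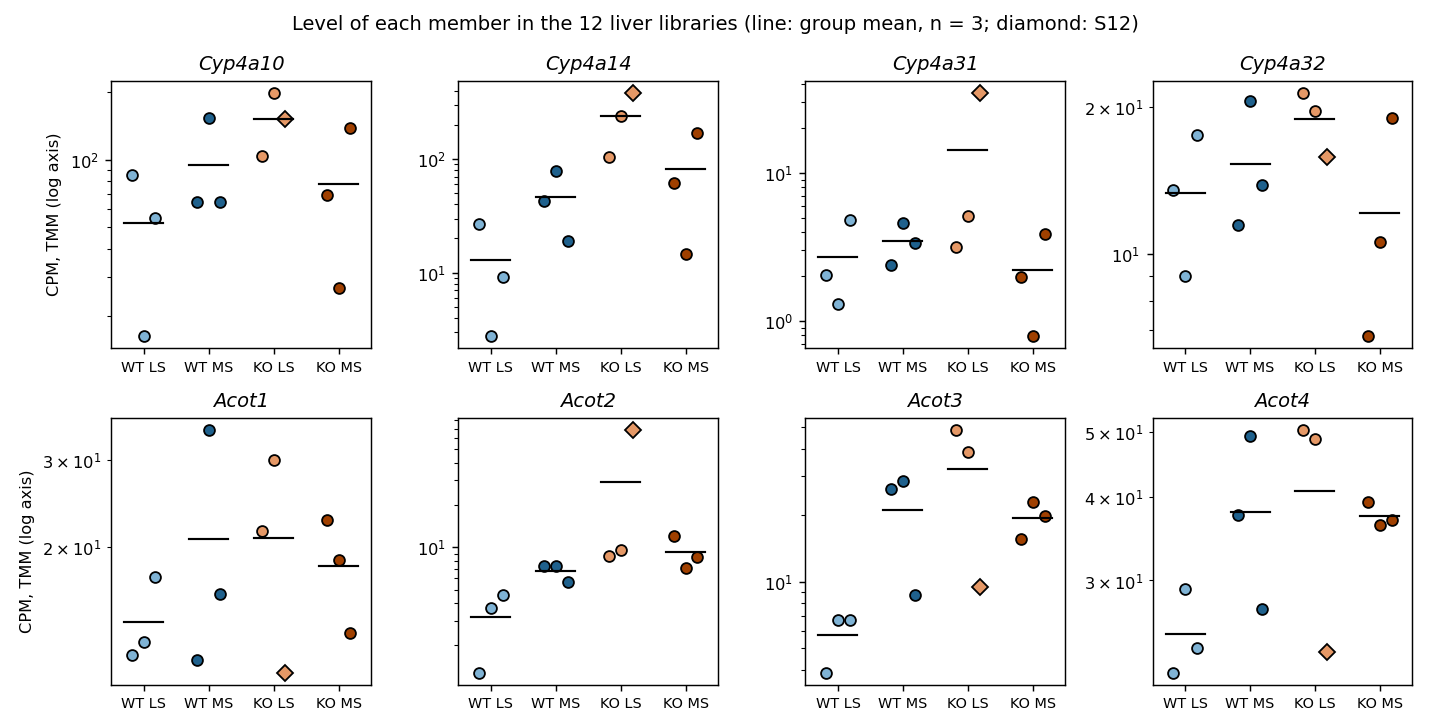
Each panel shows 1 gene, with the group on the x axis and CPM (TMM-normalized, log axis) on the y axis, 1 point per library, a line at the group mean (n = 3) and a diamond for S12. In KO LS the diamond is the highest point of all 12 libraries for Cyp4a14, Cyp4a31 and Acot2 and the lowest for Acot1.

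Cyp4a14, which encodes a fatty acid ω-hydroxylase known for its steep response to PPARα ligands, had the widest range of the members. It was at 26.9, 2.76 and 9.14 CPM in WT LS, 43.0, 78.4 and 18.8 in WT MS, 104, 242 and 383 in KO LS and 61.1, 14.6 and 171 in KO MS. Every KO LS library was above every WT library, on either diet, while KO MS libraries were spread over both. On low selenium, Scly KO livers had a fitted log2 fold change against WT of 4.28 (standard error, SE, 0.96, edgeR, adjusted p = 0.342), the 16th smallest p among the 12009 genes tested. Without S12 it was 3.77. None of its sequence windows was shared and its counts were whole, so no read divided among related genes is seen in this value.

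Cyp4a10, a PPARα target as well, had the highest group mean per length of the hydroxylase genes except in KO LS, where it was at 71.6 CPM per kb and Cyp4a14 at 97.4. It was at 85.5, 16.4 and 54.7 CPM in WT LS, 64.8, 153 and 64.7 in WT MS, 104, 198 and 151 in KO LS and 69.7, 26.8 and 138 in KO MS. The KO LS libraries were all above those of WT LS but overlapped with those of WT MS and KO MS. The log2 fold change between genotypes on low selenium was 1.54 (SE 0.617, edgeR, adjusted p = 0.439), and 1.51 without S12.

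Cyp4a31 and Cyp4a32 encode further hydroxylases of the cluster, less studied than the former pair. Cyp4a31 was at 2.06, 1.30 and 4.82 CPM in WT LS, 2.41, 4.59 and 3.36 in WT MS, 3.16, 5.10 and 34.6 in KO LS and 1.996, 0.793 and 3.85 in KO MS, the lowest from an estimated count of 5.05. Apart from S12, its libraries lay between 0.793 and 5.10 CPM and the groups overlapped, and the log2 fold change on low selenium of 2.40 (SE 0.828, edgeR, adjusted p = 0.439) was 0.57 without S12. Cyp4a32 was at 13.5, 9.03 and 17.5 CPM in WT LS, 11.4, 20.6 and 13.9 in WT MS, 21.3, 19.7 and 15.8 in KO LS and 6.80, 10.6 and 19.0 in KO MS. Its groups overlapped too, with a log2 fold change on low selenium of 0.51 (SE 0.363, edgeR, adjusted p = 0.528). Counted as 1 feature, the sum of Cyp4a10, Cyp4a31 and Cyp4a32 had a log2 fold change of 1.44 (SE 0.547, edgeR, adjusted p = 0.439).

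Acot3, a peroxisomal thioesterase gene for long-chain acyl-CoA, was the thioesterase member with the smallest p on low selenium. It was at 3.87, 6.73 and 6.67 CPM in WT LS, 26.3, 28.6 and 8.66 in WT MS, 48.6, 38.5 and 9.46 in KO LS and 15.6, 23.0 and 19.8 in KO MS. The 3 WT LS libraries were the lowest of all 12, and S10 and S11 of KO LS the highest, with S12 far below them, near the level of S6 in WT MS. The log2 fold change between genotypes on low selenium was 2.46 (SE 0.559, edgeR, adjusted p = 0.342). Without S12 it was 2.87 with an adjusted p of 0.123 (edgeR), the smallest of the members without that library. In the paper's quantitative PCR of male livers, mean Acot3 on the low diet was lower in Scly KO than in WT. Neither genotype nor its interaction with the diet passed there for Acot3, so the higher level seen here was not reproduced by that method. In female livers, not sequenced here, the paper's quantitative PCR had Acot3 lower in Scly KO, and genotype, diet and interaction passed. The paper also lists acyl-CoA hydrolysis among the pathways most enriched in its RNA-Seq of Scly KO against WT.

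Acot4, its peroxisomal neighbour, was at 21.9, 29.1 and 23.8 CPM in WT LS, 37.6, 49.3 and 27.2 in WT MS, 50.3, 48.7 and 23.5 in KO LS and 39.3, 36.2 and 36.9 in KO MS. As for Acot3, S10 was the highest library and S1 the lowest, over a smaller range, and S12 lay among the WT LS libraries. The log2 fold change on low selenium was 0.71 (SE 0.296, edgeR, adjusted p = 0.439), and 0.96 without S12.

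Acot2, the mitochondrial thioesterase gene, was at 1.28, 3.68 and 4.58 CPM in WT LS, 7.41, 7.36 and 5.71 in WT MS, 8.74, 9.52 and 68.6 in KO LS and 12.0, 7.08 and 8.60 in KO MS. The 3 WT LS libraries were again the lowest of the 12, and S12 was 7.51 times the mean of S10 and S11. The log2 fold change on low selenium of 3.13 (SE 0.717, edgeR, adjusted p = 0.342) was 1.43 without S12, when the KO LS libraries at 8.74 and 9.52 CPM still lay above WT LS. Acot1, the cytosolic enzyme's gene, was at 12.2, 12.9 and 17.4 CPM in WT LS, 11.9, 34.4 and 16.1 in WT MS, 21.6, 29.9 and 11.2 in KO LS and 22.7, 18.9 and 13.5 in KO MS. Its groups overlapped, S12 was its lowest library, and its log2 fold change was 0.56 (SE 0.413, edgeR, adjusted p = 0.538), or 0.84 without S12.

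Within S12 the thioesterases thus stood in other proportions than elsewhere: Acot2 held 60.8% of the summed counts of the 4 genes there and 3.27% to 13.4% in the other 11 libraries, and Acot4 20.8% against 38.5% to 55.8%. Their sum moved less, at 113 CPM in S12 and 129 and 127 in S10 and S11, against 39.2, 52.5 and 52.5 in WT LS. Counted as 1 feature, the 4 thioesterases had a log2 fold change on low selenium of 1.35 (SE 0.259, edgeR, adjusted p = 0.261). Among the hydroxylases, Cyp4a14 held 9.38% to 35.4% of the family counts in WT libraries and 27.7% to 65.5% in Scly KO libraries, the highest share being that of S12. The bile duct and stellate marker sums given above were highest in the same library, and the hepatocyte, macrophage and endothelial sums lowest. Their part in these proportions was not tested.

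**Figure D3:**
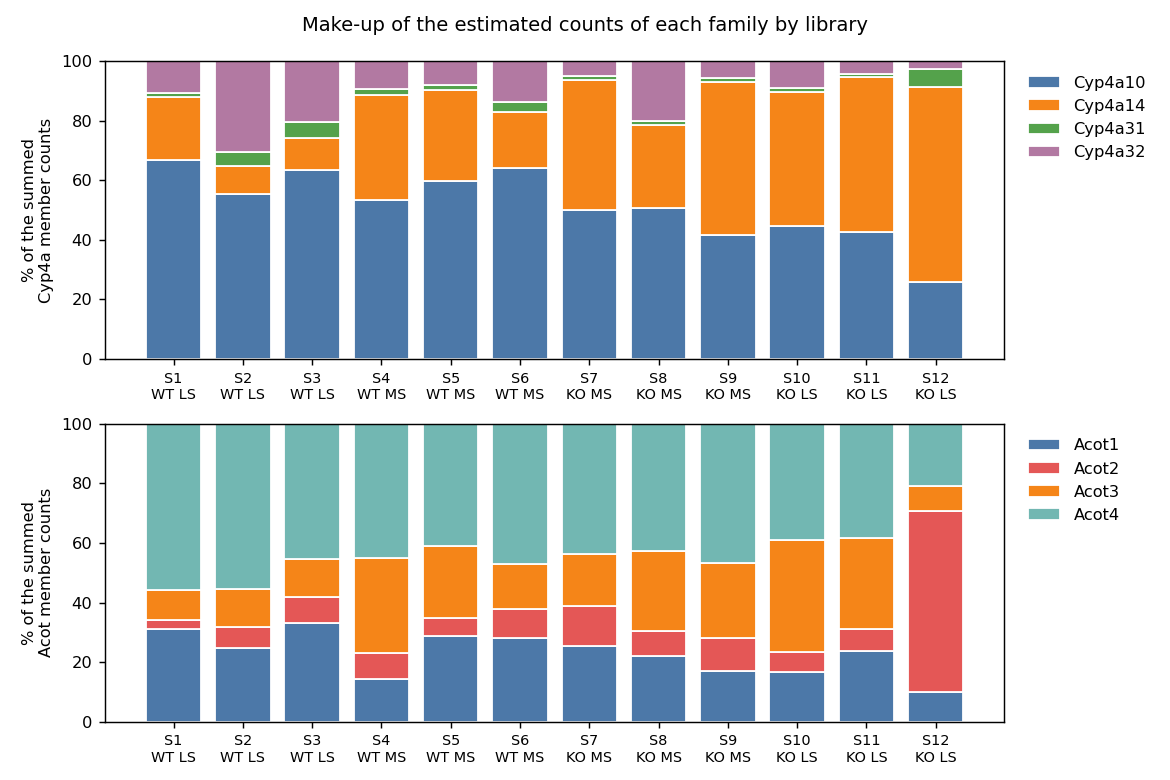
Stacked bars give, for each library on the x axis, the percent of the summed estimated counts of the 4 Cyp4a members (top) and the 4 Acot members (bottom) that each gene holds. Acot2 fills 60.8% of the bar of S12 and at most 13.4% of any other, and Cyp4a14 fills 65.5% of the bar of S12.

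On low selenium, all 8 members had a log2 fold change above 0 in Scly KO against WT, with a median of 1.97, beside 54.2% of all tested genes above 0 and a median of 0.06 over them. Without S12 the 8 remained above 0 with a median of 1.19, and 5 of them had an unadjusted p under 0.05 (edgeR). In 4 members, Cyp4a10, Cyp4a14, Acot2 and Acot3, every KO LS library was above every WT LS library, as in 13.2% of tested genes. At an unadjusted p under 0.05, edgeR had 6 of 8 higher, all but Cyp4a32 and Acot1, beside 5.78% of tested genes. After adjustment over all genes edgeR called 0 members, and 0.00833% of genes, that is Scly alone. DESeq2 called 2 members higher, Acot3 (adjusted p = 0.0048) and Cyp4a14 (adjusted p = 0.0127), among 0.391% of genes, and gave no p for Acot2. limma-voom with sample weights called the same 2 (adjusted p = 0.0167 and 0.0138) among 0.749% of genes. All 8 kept a log2 fold change above 0 in every alternative run, from the smallest value of 0.20 for Acot1 to the largest of 5.36 for Cyp4a14. Related members share reads, and the 8 are not independent of each other.

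**Figure D4:**
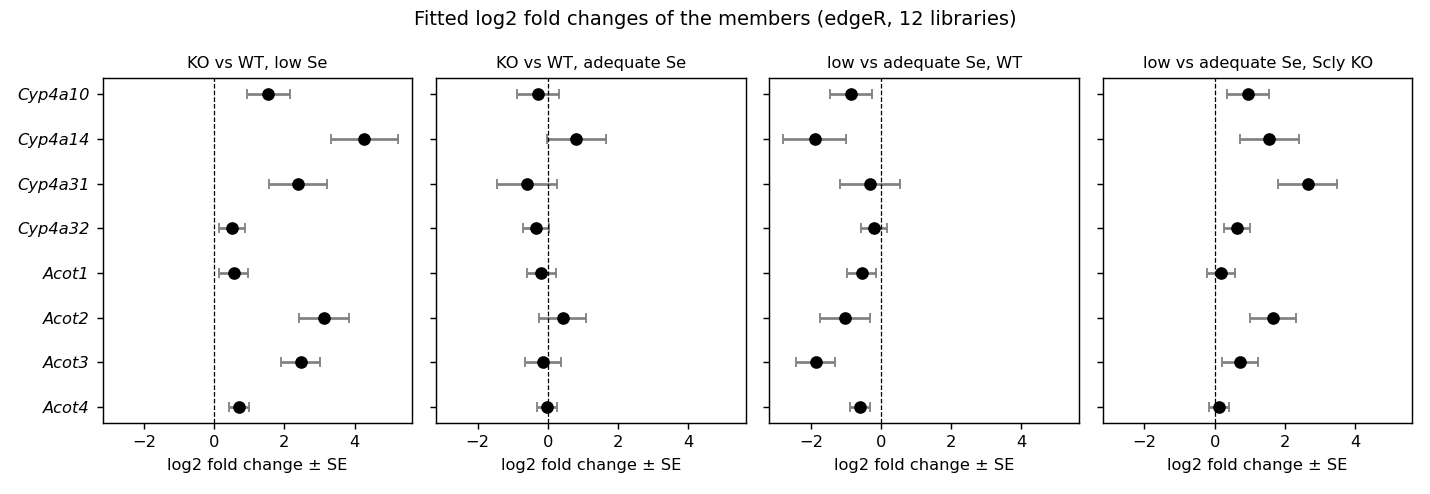
Points give the fitted log2 fold change of each gene (edgeR, all 12 libraries) and bars its standard error (SE), in 4 panels for Scly KO against WT on the low and adequate diet and for low against adequate selenium in WT and in Scly KO. The 8 points lie above 0 in the first and last panels, between 0.51 and 4.28 and between 0.12 and 2.65, and below 0 in the third, between -1.90 and -0.20.

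On adequate selenium the libraries of the 2 genotypes overlapped for every member. Of the 8, 2 had a log2 fold change above 0 in Scly KO against WT, beside 54.8% of tested genes, with a median of -0.16, and 0 had every library of KO MS above (2.26% of tested genes) or below (2.5%) those of WT MS. edgeR called 0 members, and 0 passed at an unadjusted p under 0.05, beside 0.516% of genes higher and 0.408% lower. Cyp4a14 had a log2 fold change of 0.82 with a 95% interval from -0.99 to 2.62, Acot3 one of -0.13 (-1.24 to 0.99) and Acot4 one of -0.02 (-0.65 to 0.61), so that moderate differences in either direction remain within these intervals. limma-voom called Cyp4a10 and Cyp4a31 lower, among 7.54% of genes, while DESeq2 called 0 members among 0.025% of genes. In KO MS the hydroxylases were unevenly spread between libraries, Cyp4a14 at 61.1 and 14.6 CPM in S7 and S8 and 171 in S9, and the 2 lower libraries are those in which Rn45s held 17.0% and 19.9% of counts against 2.94% in S9. Its part in the spread was not tested. Without S7 and S8, the log2 fold change of Cyp4a10 was 0.54 instead of -0.27, where S9 alone stands for KO MS and its spread is taken from the other groups. Without S7, S8 and S12, Cyp4a14 was at 1.86 instead of 0.82 (edgeR, adjusted p = 0.462) and was then the 1 member with an unadjusted p under 0.05, and the median of the members was 0.24 instead of -0.16.

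Low against adequate selenium was next compared in each genotype, WT LS and KO LS being the same libraries as above. In WT, all 8 members had a log2 fold change below 0 on low selenium, with a median of -0.73, while 51.8% of tested genes were above 0. The smallest p was that of Acot3, with a log2 fold change of -1.86 (SE 0.555, edgeR, adjusted p = 1), and Cyp4a14 had one of -1.90 (SE 0.886, edgeR, adjusted p = 1). Acot2 and Acot3 had every WT LS library below every WT MS library, as had 6.47% of tested genes, and 0 members had them all above (5.23%). Acot3 was the only member lower at an unadjusted p under 0.05, beside 1.15% of genes, while 0 were higher (1.14%), and edgeR, DESeq2 and limma-voom each called 0 members after adjustment, among 0%, 0.0167% and 0.15% of genes. The log2 fold changes of Cyp4a10, Cyp4a14, Acot2, Acot3 and Acot4 were below 0 in every alternative, and those of Cyp4a31, Cyp4a32 and Acot1 were above 0 without S2 or S5, by at most 0.08.

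In Scly KO mice all 8 members had a log2 fold change above 0 on low against adequate selenium, with a median of 0.84, beside 53.3% of tested genes. The groups overlapped for all of them, whereas 5.51% of tested genes had every KO LS library above every KO MS library and 5.33% below. At an unadjusted p under 0.05, edgeR had 2 of 8 higher, and 0 lower, beside 9.24% and 12.7% of genes, the 2 being Cyp4a31 with a log2 fold change of 2.65 (SE 0.827, edgeR, adjusted p = 0.201) and Acot2 with 1.66 (SE 0.654, edgeR, adjusted p = 0.207), and called 0 members and 0% of genes after adjustment. These 2 are the members that S12 raises most: without it they were at 0.83 and -0.02. Without S12, Acot3 had 1.15 instead of 0.73 (edgeR, adjusted p = 0.424). The hydroxylases depended on S7 and S8 as well, and without S7, S8 and S12 their log2 fold changes lay between 0.02 for Cyp4a14 and 0.13 for Cyp4a10. limma-voom called 5 members higher, but also 49.9% of all genes changed, and DESeq2 called 0 members among 1.07% of genes. DESeq2 gave no adjusted p there for 9318 of the 12009 genes, 6 of the members (all but Cyp4a10 and Cyp4a14) among them, so that its 0 says nothing of those 6. Averaged over genotypes, 4 members had a log2 fold change above 0 and 4 below for low against adequate selenium, beside 53.2% of genes above 0, with a median of -0.06, and 0 passed at an unadjusted p under 0.05, beside 5.57% of genes higher and 7.76% lower. edgeR, DESeq2 and limma-voom called 0 members there, among 0.00833%, 0.025% and 41.3% of genes.

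Whether the genotype difference depended on the diet was tested by the interaction, the genotype log2 fold change on low minus that on adequate selenium. It was above 0 for all 8 members, with a median of 2.20, beside 53.4% of tested genes. Without S12 the median was 1.09, with all 8 still above 0, and 1.06 without S7, S8 and S12. Acot3 had 2.59 (SE 0.757, edgeR, adjusted p = 0.65), Cyp4a14 3.46 (SE 1.22), Acot2 2.70 (SE 0.967) and Cyp4a31 2.98 (SE 1.18). These 4 were higher at an unadjusted p under 0.05, beside 2.1% of genes, and 0 were lower (4.63%). edgeR called 0 members among 0% of genes, DESeq2 0 among 0%, and limma-voom 6 among 17.3%. Without S12, Acot3 was at 3.0, Cyp4a14 at 2.97, Acot2 at 1.0 and Cyp4a31 at 1.15. Without S7, S8 and S12, Cyp4a14 was at 1.94, Cyp4a10 at 0.98, Cyp4a31 at 0.41 and Cyp4a32 at 0.30, and Acot3 at 2.97. The sum of the 4 thioesterases had an interaction of 1.39 (SE 0.362, edgeR, adjusted p = 0.65). The WT LS libraries, in which 6 of 8 members had their lowest mean, enter this value, the genotype comparison on low selenium and the diet comparison in WT alike, so the 3 are not separate lines of evidence. Averaged over both diets, all 8 members had a log2 fold change above 0 in Scly KO (55.8% of tested genes), led by Cyp4a14 with 2.55 (SE 0.628, edgeR, adjusted p = 0.503), Acot2 with 1.78 (SE 0.486) and Acot3 with 1.17 (SE 0.378). These 3 passed at an unadjusted p under 0.05, beside 2.46% of genes higher, and edgeR called 0 members among 0.00833% of genes, DESeq2 0 among 0.225% and limma-voom Acot3 among 0.566%. Without S12, Cyp4a14 was at 2.29, Acot2 at 0.93 and Acot3 at 1.37, and Cyp4a31 was at -0.01 instead of 0.91.

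The members did not move as 1 block across the libraries. Over the 12 libraries, which share their groups and depth, Pearson's r of log2 CPM was 0.94 between Acot3 and Acot4 (0.95 without S12) and 0.90 between Cyp4a10 and Cyp4a14 (0.91 without S12). Between the families it was 0.39 for Cyp4a10 and Acot3 (0.47 without S12) and 0.52 for Cyp4a14 and Acot3 (0.70 without S12). For Cyp4a31 and Acot4 it was -0.20, and 0.22 without S12. Acot2 had an r of 0.34 with Acot3 and 0.15 with Acot4, and of 0.81 and 0.80 without S12. Acot1 and Acot2, which shared 434 windows, had an r of 0.02, and 0.55 without S12. Of the genes outside both families, the 3 with the highest r to Acot3 were Slc16a7, a monocarboxylate transporter gene (0.87), Cd300e (0.87) and Klf10 (0.86), and Cd300e and Klf10 were also among the 3 for Acot4, after Bpnt1 (0.87). For Cyp4a14 they were Pik3c2b (0.85), Rpusd2 (0.85) and the P450 gene Cyp2b9 (0.85), and for Cyp4a10 Lime1 (0.88), Sco2 (0.86) and Cep250 (0.85).

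**Figure D5:**
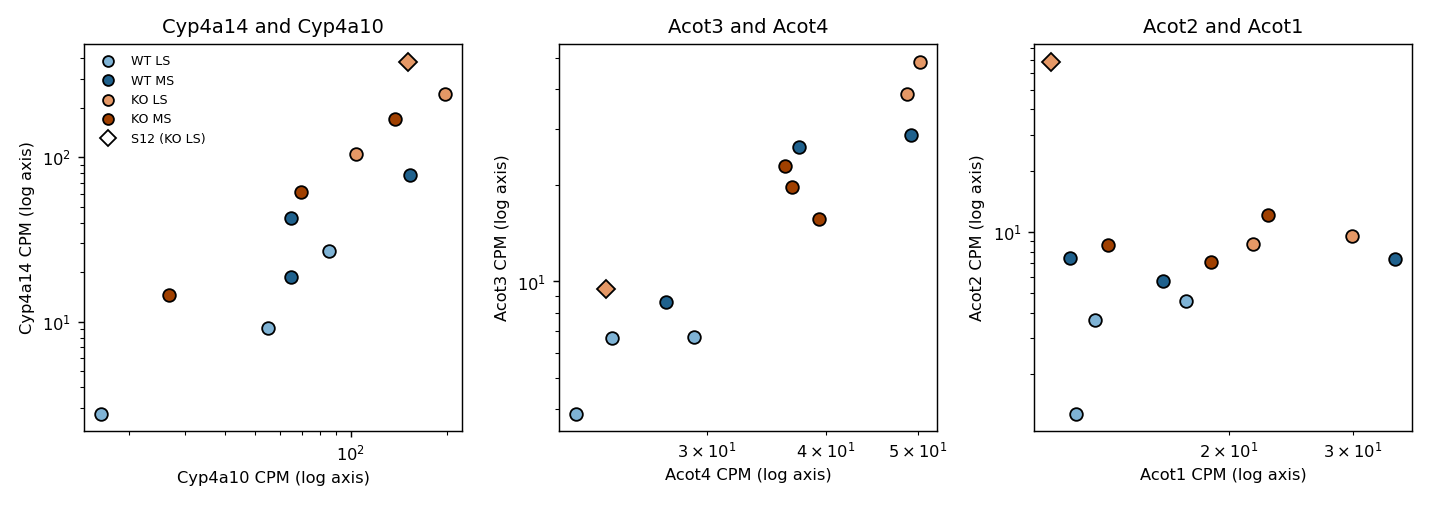
Each point is 1 library, coloured by group, with the CPM of 1 gene on each log axis and S12 as a diamond, for Cyp4a14 against Cyp4a10, Acot3 against Acot4 and Acot2 against Acot1. The first 2 panels form a rising band (r = 0.90 and 0.94), and in the third S12 stands alone at the upper left, with 68.6 CPM of Acot2 and 11.2 of Acot1.

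Acot3 and Acot4 followed each other most closely, and the RefSeq promoter windows of both are shown (GRCm38.p6, plus strand, 250 bases before to 50 after the start, chr12:84051894-84052193 for Acot3 and chr12:84038129-84038428 for Acot4). The table held a window for 5 of the 8 members, Cyp4a32 and the 4 thioesterase genes. They were searched on both strands for AGGTCANAGGTCA, the repeat known as DR1 to which PPARα binds with its partner RXR, and the closest match is in capitals.
Acot3: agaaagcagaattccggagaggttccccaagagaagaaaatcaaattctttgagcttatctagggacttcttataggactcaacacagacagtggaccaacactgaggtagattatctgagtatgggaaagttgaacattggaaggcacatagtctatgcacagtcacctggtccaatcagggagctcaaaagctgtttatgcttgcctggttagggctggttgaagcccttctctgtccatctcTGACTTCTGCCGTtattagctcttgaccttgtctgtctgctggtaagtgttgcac
Acot4: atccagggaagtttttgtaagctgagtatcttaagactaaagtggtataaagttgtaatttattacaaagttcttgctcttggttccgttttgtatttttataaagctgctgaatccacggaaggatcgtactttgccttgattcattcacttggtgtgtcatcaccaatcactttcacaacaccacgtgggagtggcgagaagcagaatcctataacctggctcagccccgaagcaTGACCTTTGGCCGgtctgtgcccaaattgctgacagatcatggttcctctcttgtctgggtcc

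In Acot4 the closest match, on the minus strand at -13 from the start, matched 10 of the 12 letters that count, and 3.86% of all 32851 promoter windows held a match as good or better. In Acot3 the closest match, at -5, had 9 of 12 letters, and Acot2 and Cyp4a32 also had matches of 9, a level that 24.6% of all windows reached. Acot1 had none at that level. The half-site AGGTCA, without mismatch, was found once in Acot3 and once in Acot4, where it overlaps the DR1 match, and in 16.3% of all windows. Such a match describes letters in the window only, and binding was not measured.

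Other genes of the same pathways were compared between genotypes on low selenium. Of 16 other Cyp4 genes, 9 could be tested, 3 above and 6 below 0, the median of their log2 fold changes being -0.24 beside 1.97 in the members and 0.06 over all genes. The smallest p values were those of Cyp4b1, a P450 of xenobiotic and fatty acid metabolism, with 20.03 ± 0.737 CPM in WT LS and 12.3 ± 3.66 in KO LS (SD, n = 3) and a log2 fold change of -0.71 (SE 0.277), and of Cyp4v3, with -0.68 (SE 0.271). These 2 were lower at an unadjusted p under 0.05 and 0 were higher, beside 5.47% and 5.78% of all genes, and edgeR, DESeq2 and limma-voom each called 0 of the 9. Of 14 other thioesterase and acyltransferase genes, 10 were tested, 4 above and 6 below 0, with a median of -0.05. Acnat2, a peroxisomal acyl-CoA:amino acid N-acyltransferase gene, was at 5.05 ± 1.12 CPM in WT LS, 13.6 ± 3.45 in WT MS, 16.0 ± 4.92 in KO LS and 15.6 ± 11.7 in KO MS (SD, n = 3), again lowest in WT LS. Its log2 fold change on low selenium was 1.67 (SE 0.458, edgeR, adjusted p = 0.439), and limma-voom called it, among 0.749% of all genes. Them4, with -0.74 (SE 0.299), was the 1 lower of these 10 at an unadjusted p under 0.05 and Acnat2 the 1 higher, beside 5.47% and 5.78% of all genes.

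The other known PPARα targets lay on both sides of 0. Of 46, all tested, 25 were above and 21 below 0 on low selenium, with a median of 0.08, beside 54.2% of all genes above 0. At an unadjusted p under 0.05 (edgeR), 6 were higher and 2 lower, beside 5.78% and 5.47% of all genes. The smallest p values were those of Angptl4, the lipoprotein lipase inhibitor gene, with a log2 fold change of -0.81 (SE 0.24), Plin2, which coats lipid droplets, with 0.79 (SE 0.267), Mlycd, malonyl-CoA decarboxylase, with -0.82 (SE 0.305), and Abcd2, a peroxisomal transporter of fatty acyl-CoA, with 0.82 (SE 0.309). On adequate selenium 40 of the 46 were above 0 (median 0.17), beside 54.8% of all genes. The interaction was above 0 for 19 and below for 27 (median -0.16), where the members had 8 above and 0 below, beside 53.4% of all genes above 0. edgeR and DESeq2 called 0 of the 46 on low selenium, as did limma-voom. On adequate selenium and for the interaction, edgeR and DESeq2 again called 0. There limma-voom called 1 higher on adequate selenium, among 7.54% of all genes. For the interaction it called 7 higher and 5 lower, among 17.3% of all genes.

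Among 10 partners in ω-oxidation, alcohol and aldehyde dehydrogenases and the electron carriers of P450 enzymes Por, Cyb5a and Cyb5r3, 4 were above and 6 below 0 (median -0.08). At an unadjusted p under 0.05, 0 of them passed, beside 5.78% of all genes higher and 5.47% lower. The smallest p was that of the fatty aldehyde dehydrogenase gene Aldh3a2 with a log2 fold change of 0.55 (SE 0.272). Of 16 tested genes of acyl-CoA synthesis and transfer, 4 were above and 12 below 0 (median -0.11). Crat, carnitine acetyltransferase, was at 23.4 ± 9.28 CPM in WT LS and 46.9 ± 11.7 in KO LS and was the 1 gene higher at an unadjusted p under 0.05, and Nudt7, a peroxisomal hydrolase of coenzyme A, was the 1 lower, at 1299 ± 126 and 470 ± 342 CPM (SD, n = 3), with S12 lowest at 91.9. This 1 higher and 1 lower of 16 stand beside 5.78% and 5.47% of all genes. Of 12 regulators, 10 were above and 2 below 0 (median 0.44), beside 54.2% of all genes above 0. Pparg, the gene of the related receptor PPARγ, was at 1.37, 1.96 and 2.91 CPM in WT LS, 8.43, 4.02 and 5.33 in WT MS, 8.14, 8.37 and 20.5 in KO LS and 9.66, 3.14 and 13.8 in KO MS, with WT LS once more lowest. Its log2 fold change was 2.54 (SE 0.558, edgeR, adjusted p = 0.342), and DESeq2 and limma-voom called it, among 0.391% and 0.749% of all genes. In the paper's quantitative PCR of male livers, mean Pparg was higher in Scly KO than in WT on both diets. Genotype passed there for Pparg, while the diet and the interaction did not. Ppara itself, named after its values were seen, was at 235, 309 and 344 CPM in WT LS and 514, 448 and 240 in KO LS. The 240 was that of S12, through which alone these groups overlapped. The log2 fold change of Ppara, with S12 included, was 0.44 (SE 0.403).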

How the data were processed

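Livers of 12 male mice were sequenced as poly(A) RNA libraries (directional kit). The deposited table holds estimated counts per gene: the authors trimmed reads with Cutadapt, aligned them to mm10 with STAR and divided them among genes with Partek E/M, so that reads matching related genes are split. The annotation is not given in the sources used here. Of all values, 92.6% are whole. They were rounded, filtered (filterByExpr, minimum count 10; 12009 of 24795 genes kept) and tested with edgeR 4.0.16 (quasi-likelihood, TMM) in R 4.3.3, with 1 coefficient per group and Benjamini-Hochberg adjustment over all tested genes at 0.05. CPM are TMM-normalized. DESeq2 1.42.0 and limma 3.58.1 (voom with sample weights), other scalings and filters, and fits without libraries were alternatives. Sequences and 75-base windows came from GENCODE M21 and RefSeq, aligned with Biopython 1.88. The fits were tested on simulated data first. The members and gene lists were chosen with earlier results of these data known. Every member was named, with up to 4 genes of each list by smallest p and the 3 genes most like each member. Counting error is only part of the spread between libraries.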

Additional observations from a re-analysis of the deposited data

How the results depend on the processing

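With 3 libraries a group, the spread between libraries limited every comparison, the lowest estimated count behind a value was 5.05 (Cyp4a31), and values of genes that share reads depend on how those were divided. The number of members past the adjusted threshold was 0 with edgeR in every comparison. On low selenium DESeq2 gave 2 for the genotype and limma-voom 2, and limma-voom gave 2 on adequate selenium, 1 averaged over diets, 5 for the diet in Scly KO and 6 for the interaction; the cause was not tested. Leaving out 1 library gave 0 to 3 for the diet in Scly KO, the 3 being without S9 (Cyp4a14, Cyp4a31 and Cyp4a32, among 3979 genes past the threshold). Genes past the threshold numbered 1, 1, 1, 0, 0, 1 and 0 over the 7 comparisons (genotype on low selenium, on adequate selenium, averaged; diet in WT, in Scly KO, averaged; interaction) with edgeR. DESeq2 gave 47, 3, 27, 2, 129, 3 and 0, and limma-voom 90, 905, 68, 18, 5988, 4963 and 2081. Without S9, 2200 genes passed for the averaged diet, and without S11 there were 6 for the genotype on low selenium, 4 for the diet in Scly KO and 3 for the interaction; other single libraries left the counts between 0 and 3. With no filter on low counts 3 genes passed on low selenium and 4 averaged over diets, 2 passed with only the groups compared on low selenium, and without S7, S8 and S12 4 passed averaged over diets and 0 for the averaged diet. Scaling by library totals only, added after seeing the data, moved the median of all genes by 0.32 for the genotype on low selenium, -0.17 on adequate selenium, 0.46 for the diet in Scly KO, 0.22 averaged over genotypes and 0.49 for the interaction. No paired analysis was possible because the library columns carry no replicate numbers.

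Log2 fold changes changed sign as follows, all from values that had not passed a test; the cause was not tested. On adequate selenium, limma-voom gave Cyp4a14 -1.44 and Acot3 0.17; without S7 and S8, Cyp4a10 was 0.54, Cyp4a31 0.17 and Cyp4a32 0.30, and without S7, S8 and S12 they were 0.54, 0.17 and 0.31. Leaving out 1 library gave -0.97 to 0.28 for Cyp4a10, -0.30 to 1.42 for Cyp4a14, -0.47 to 0.39 for Acot1, -0.49 to 0.16 for Acot3 and -0.20 to 0.22 for Acot4. Averaged over diets, Cyp4a31 was -0.54 with limma-voom and Acot1 -0.0518 without S7 and S8, and 1 library less gave -0.00896 to 1.29 for Cyp4a31 and -0.16 to 0.22 for Cyp4a32. For the diet in WT, 1 library less gave -1.10 to 0.0611 for Cyp4a31, -0.46 to 0.0836 for Cyp4a32 and -0.84 to 0.0239 for Acot1. For the diet in Scly KO, Cyp4a32 was -0.0132 without S7 and S8, and 1 library less gave -0.17 to 0.48 for Acot1, -0.0234 to 2.08 for Acot2 and -0.0616 to 0.39 for Acot4. For the diet averaged over genotypes, Acot2 was -0.19 with limma-voom and Acot1 0.0106 with library totals only; without S7 and S8, Cyp4a10 was -0.36, Cyp4a32 -0.10 and Acot1 0.0355, and without S7, S8 and S12, Cyp4a10 -0.36, Cyp4a31 -0.12, Cyp4a32 -0.0445, Acot1 0.19 and Acot2 -0.46. There, 1 library less gave -0.24 to 0.39 for Cyp4a10, -0.72 to 0.38 for Cyp4a14, -0.36 to 0.10 for Acot1 and -0.52 to 0.52 for Acot2.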

Other observations

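Of the genes most like the remaining members over the 12 libraries, those of Cyp4a31 and Acot2 were set by S12 in part: Zfyve16, Aspm and Sema4d had a Pearson's r of log2 CPM with Cyp4a31 of 0.94 to 0.96, and of 0.82 to 0.90 without that library, and Gpat3, Lilr4b and Enc1 had 0.94 to 0.95 with Acot2, and 0.88 to 0.89 without it. For Acot1 they were Rab12, Pex14, a peroxisomal import factor gene, and Wdpcp (0.82 to 0.91). For Cyp4a32 they were Dedd2, Wrnip1 and Cpt2, the mitochondrial carnitine palmitoyltransferase gene, which had an r of 0.88 with it and was at 105 ± 5.84 CPM in WT LS and 128 ± 24.9 in KO LS (SD, n = 3).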
